A study of Rattus norvegicus with 20 samples.

Results

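The genes described are 10 macrophage genes, followed in isolated renal vasculature of the rat: Csf1r, Cybb, Cd68, Cd163, Mrc1, Adgre1, Fcer1g, Marco, Aif1 and Nfam1. They were taken by gene symbol, 1 array transcript for each of the 10, out of 18511 transcripts that carry 1 symbol (18166 genes). Vessels came from male Wistar Kyoto rats at postnatal day 10 (P10) or 180 (P180), either from litters left undisturbed with the dam (control) or from litters that went through daily maternal separation (MatSep). In this form of early life stress, pups were taken from the dam for some hours each day over roughly their first postnatal fortnight. P10 rats were therefore sampled while the separation protocol was still running, and P180 rats long after it ended. RNA was hybridised to 1 array per sample, 20 arrays in all, 5 in each of the 4 groups, and all values below are log2 of the normalized intensity that the authors deposited. Levels are compared between groups for the same gene only, since probes of different genes differ in brightness.

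The vessels were separated mechanically by sieving, with a finer sieve for neonates than for adults, so that age and preparation cannot be told apart. Besides vessel cells the preparations held tubular cells, as the methods state. The summed linear intensity of 8 tubular markers ran from 30477 to 41292 over the arrays, and that of 5 endothelial markers from 5358 to 9698, with no group apart from the others. Single markers did differ with age in controls (limma, adjusted p under 0.05). Of the endothelial markers 2 were lower and 1 higher, and of the tubular markers 2 were higher and 2 lower. None passed for MatSep at either age, though 6 of 8 tubular means were lower at P10. The study itself reports lower PECAM-1 by RT-qPCR after MatSep at both ages, with tubular markers unchanged. By their numbers, the samples fall into 4 unbroken runs, each of 1 age and with both treatments (1 to 6 and 8 to 11 at P180, 14 to 17 and 19 to 24 at P10), so that age and run cannot be told apart either. Median log2 intensity per array lay between 6.97 and 7.03. Litter is not in the labels, and p-values measure the spread between these samples.

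Macrophages in the kidney lie between tubules and around vessels, and they are seeded before birth and joined after birth by cells from blood monocytes. Csf1r, the receptor for CSF1 and IL-34, keeps them alive, and the transcription factor PU.1 (Spi1) switches on much of their gene programme. In bulk vessels, more cells of a type and more RNA per cell cannot be told apart, and several of these genes are also expressed outside macrophages: Mrc1 in some endothelial cells, Fcer1g in mast cells and NK cells, and Cybb in neutrophils and B cells.

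The promoters of the members are shown first, and whether they bear on the changes with age was not tested. The 250 bases before the RefSeq start (assembly GRCr8) were read for 8 of the 10 members, all but Fcer1g and Aif1, and searched on both strands for GAGGAA, the core of the PU.1 site, which reads TTCCTC where it lies on the opposite strand. It was found before the first listed start of 6 of 8 members (Csf1r, Cybb, Cd68, Mrc1, Adgre1 and Marco), next to 23.2% of 27457 genes with a listed promoter. The 60 bases around the box nearest the start are given for 5 members, with the box in capitals. Cybb (chrX:16065066-16065125, minus strand), Cd68 (chr10:54882442-54882501, minus strand) and Mrc1 (chr17:82157663-82157722, plus strand) have it 14, 27 and 35 bases before the start, Marco (chr13:34201327-34201386, minus strand) 104 bases before, and Nfam1 (chr7:116054130-116054189, minus strand), shown from the second of its 6 listed starts, 16 bases before with a further box upstream.
Cybb: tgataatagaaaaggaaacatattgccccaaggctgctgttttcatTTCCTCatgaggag
Cd68: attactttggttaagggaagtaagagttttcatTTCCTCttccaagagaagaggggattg
Mrc1: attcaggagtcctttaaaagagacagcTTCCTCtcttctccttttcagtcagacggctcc
Marco: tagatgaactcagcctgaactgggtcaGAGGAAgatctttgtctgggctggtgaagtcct
Nfam1: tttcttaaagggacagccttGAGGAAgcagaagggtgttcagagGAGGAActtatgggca

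These letters are short and common, and a match is a description of the window, not a bound site. Mrc1, the one member that fell with age, carries the same letters as Cybb and Cd68, which rose. Cd163 had no match in its window. For Nfam1 the same 2 boxes lay before 4 of its 6 listed starts, which are close together. The other starts, its first among them, had none. The core of the interferon-stimulated element, GAAA repeated after a gap of any 2 bases, was present in 2 of 8 members, Cybb (in the window above, 52 bases before the start) and Adgre1, next to 3.29% of all genes. The C/EBP letters TTNNGNAA were in 8 of 8 next to 36.8%. No element overlapped another in these members except 1 PU box and 1 C/EBP match at the Nfam1 starts that hold boxes.

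The comparison of P180 with P10 in controls asked how these genes behave during normal postnatal maturation. In controls 8 of the members had higher intensity in adult vessels, Mrc1 fell, and Cd163 did not pass the test (limma, Benjamini-Hochberg over all 18511 transcripts, adjusted p under 0.05). The rises ran from 8.92-fold for Cybb to 1.27-fold for Marco. Of all transcripts, 24.7% were called higher and 20.6% lower in this comparison, against 8 of 10 and 1 of 10 members. The 5 adult controls lay wholly above the 5 neonatal controls for 8 members (16.3% of all transcripts) and wholly below for Mrc1. The median change of the members was 1.81 on the log2 scale, next to 0.05 for all transcripts tested. Each of these 9 members reached p = 0.00794 in an exact 2-sided permutation test, the smallest that 5 against 5 arrays allow.

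**Figure D1:**
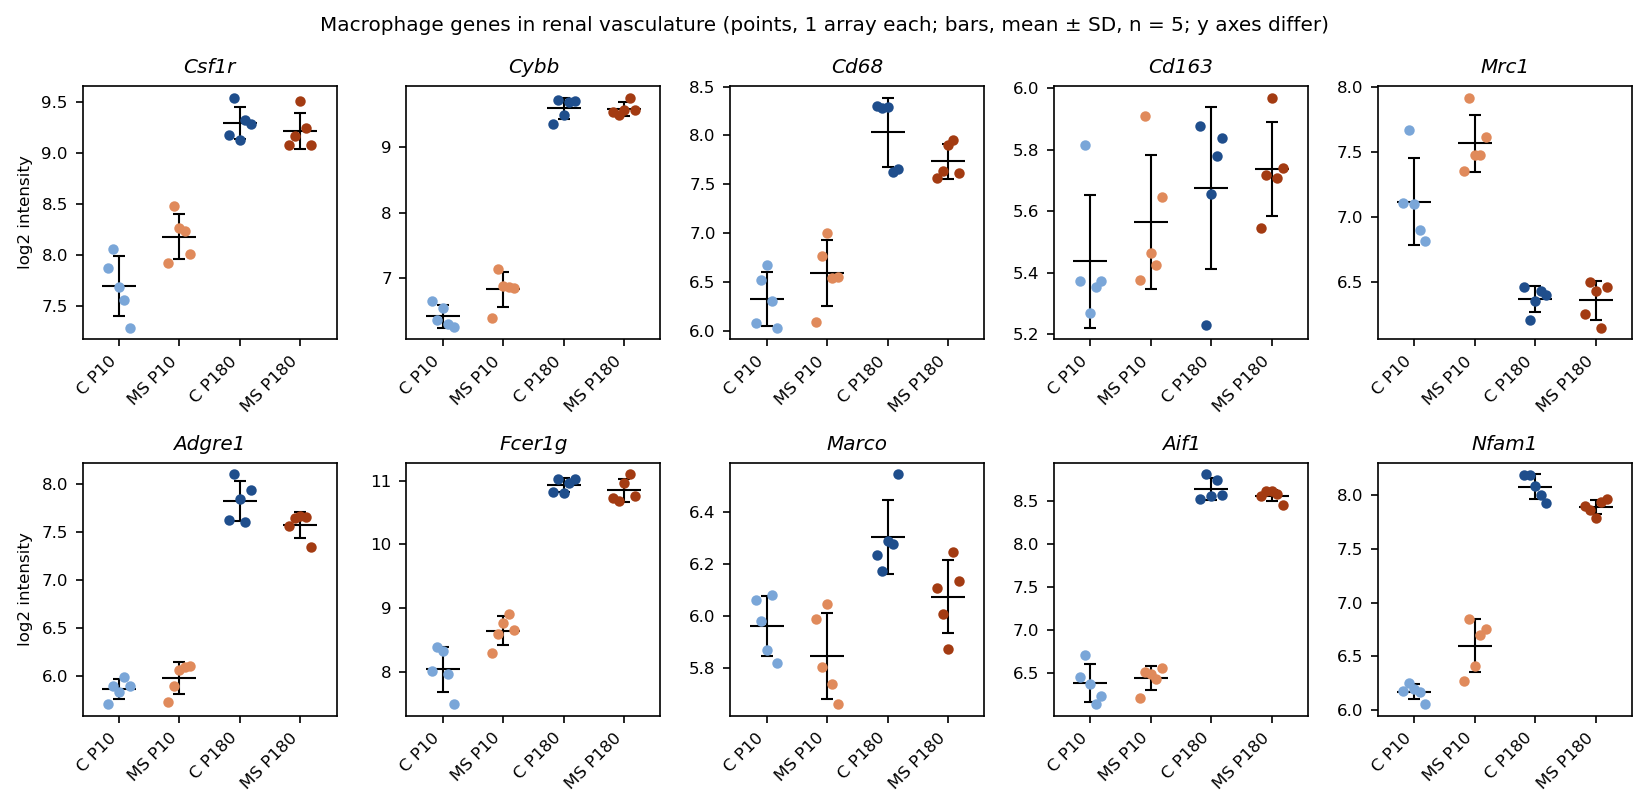
Log2 normalized intensity (y axis, a separate scale per gene) of the 10 macrophage genes in control (C) and MatSep (MS) renal vasculature at P10 and P180. Points are single arrays and bars are mean ± SD, n = 5. Mrc1 sits lower at P180, and Cd163 and Marco, both dim, differ little. The other 7 genes sit far higher at P180 than at P10 in both treatments.

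Csf1r, the receptor on which macrophage survival depends, measured 7.88, 8.06, 7.69, 7.55 and 7.29 in P10 controls (replicates 1 to 5) and 9.18, 9.55, 9.13, 9.33 and 9.29 in P180 controls. The ages did not overlap, and the highest neonate, replicate 2, stayed more than 1 log2 unit under the lowest adult. Csf1r rose 3.04-fold (log2 1.60, SE 0.13, adjusted p = 3.5e-09). Of the 9 measured genes of the Csf1r axis (ligands and myeloid transcription factors), 6 rose and none fell. They included the ligands Il34 (log2 2.0, SE 0.12) and Csf1 (0.73, SE 0.09), and the transcription factors Spi1 (1.46, SE 0.12) and Irf8 (1.05, SE 0.10). Il34 is made by epithelial cells and neurons as a rule, not by macrophages.

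Cybb encodes the catalytic subunit of the phagocyte NADPH oxidase, which makes superoxide. Its P10 controls measured 6.66, 6.36, 6.55, 6.30 and 6.26, and its P180 controls 9.35, 9.71, 9.48, 9.69 and 9.69. It had the largest change of the members (log2 3.16, SE 0.11, adjusted p = 9.4e-15) and ranked 34 by p among all transcripts. Of the 4 other measured oxidase genes, 3 rose as well: the small GTPase Rac2 (log2 2.34, SE 0.16), the organiser Ncf1 (1.77, SE 0.09) and Ncf4 (0.95, SE 0.11). Cyba, the partner chain of Cybb that many cell types express, did not pass (0.34, SE 0.21, adjusted p = 0.201) and was picked out after its value was seen.

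Fcer1g is the signalling chain shared by several Fc receptors, and Nfam1 is a receptor that signals through the same kind of motif (ITAM). Fcer1g measured 8.02, 8.40, 8.33, 7.97 and 7.50 in P10 controls and 10.81, 11.03, 10.80, 10.97 and 11.02 in P180 controls, a 7.36-fold rise (log2 2.88, SE 0.14, adjusted p = 9.4e-13). The neonates spread over almost 1 log2 unit, with replicate 5 lowest, and the adults lay close together. Nfam1 measured 6.17, 6.25, 6.20, 6.17 and 6.06 in P10 controls and 8.19, 8.19, 8.08, 8.0 and 7.92 in P180 controls, a 3.75-fold rise (log2 1.91, SE 0.09, adjusted p = 7.4e-13). Both ages were tight for this gene and far apart. Among 14 measured Fc receptors, ITAM adaptors and their kinases, 10 rose and none fell. Clec7a, the receptor for fungal glucans, rose by 3.47 on the log2 scale, the IgG receptors Fcgr1a by 2.71 and Fcgr3a by 2.53, and the adaptor Tyrobp by 2.28. The Fc receptor genes are close relatives, and probes may read more than 1 of them.

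General macrophage markers also rose. Aif1 (IBA1, an actin-binding protein) lay between 6.14 and 6.70 in P10 controls and between 8.52 and 8.81 in P180 controls, a 4.78-fold rise (log2 2.26, SE 0.09, adjusted p = 7.6e-14). Adgre1, an adhesion receptor used as the classic mouse macrophage antigen, went from 5.70 to 5.98 in neonates to 7.61 to 8.11 in adults (3.91-fold, log2 1.97, SE 0.10, adjusted p = 1.5e-12). Neither gene had a neonate near an adult. Cd68, a lysosomal membrane protein of phagocytes, measured 8.30, 8.28, 8.29, 7.63 and 7.66 in the adult controls, so that replicates 4 and 5, both of the run 8 to 11, were lower than the others. It was still 3.26-fold higher than at P10, where controls lay from 6.04 to 6.68 (log2 1.70, SE 0.17, adjusted p = 7.7e-08).

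Of the scavenger receptors among the members, 1 fell, 1 did not pass and 1 rose. Cd163 and Marco were dim, with group means between 5.44 and 6.30, under every array median, so that their changes may be compressed. The P10 control means of Adgre1 (5.86), Nfam1 (6.17), Cd68 (6.33), Aif1 (6.38) and Cybb (6.43) also lay under every array median. So did the P180 control mean of Mrc1 (6.37), and the same limit holds for these genes. Mrc1 (CD206, the mannose receptor) measured 7.11, 7.67, 7.10, 6.90 and 6.82 in P10 controls and 6.46, 6.21, 6.36, 6.43 and 6.40 in P180 controls. Every adult lay under every neonate, and the mean fell by 0.75 on the log2 scale (SE 0.13, 1.68-fold lower, adjusted p = 8.3e-05). Cd163, which takes up haemoglobin bound to haptoglobin, measured 5.37, 5.81, 5.27, 5.36 and 5.37 at P10 and 5.88, 5.23, 5.66, 5.78 and 5.84 at P180. Replicate 2 stood apart at both ages, highest of the neonates and lowest of the adults, and the difference did not pass (log2 0.24, 95% interval -0.03 to 0.51, adjusted p = 0.136). It passed when either array was left out, with an adjusted p of 0.0353 without the P10 array and 0.0204 without the P180 array. Leaving out the highest neonate or the lowest adult enlarges the rise by arithmetic, so these passes are not separate evidence. Marco, a scavenger receptor of marginal zone and alveolar macrophages, lay between 5.82 and 6.08 in neonates and between 6.17 and 6.54 in adults (1.27-fold, log2 0.34, SE 0.09, adjusted p = 0.0039). Of 13 other measured scavenger and efferocytosis receptors, 7 rose, among them Msr1 (log2 1.80, SE 0.16), Timd4 (1.37, SE 0.14) and Mertk (0.84, SE 0.12). Stab1 (-0.64), Colec12 (-0.63) and Lyve1 (-0.46) fell, and were singled out after their values were seen. Stab1 and Lyve1 are expressed by some macrophages and also by lymphatic or sinusoidal endothelium, and of 5 lymphatic endothelial markers 2 fell (Prox1 -0.70, Reln -0.44) and none rose.

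The macrophage label was checked on genes outside the 10. Of 20 other macrophage and monocyte markers, 15 rose and none fell between P10 and P180 in controls, with a median change of 1.53 on the log2 scale. Of all transcripts, 24.7% were called higher and 20.6% lower. Ctss, a lysosomal protease of antigen-presenting cells, had 9.61 ± 0.20 (SD, n = 5) at P180 and 5.89 ± 0.29 at P10 (log2 3.72, SE 0.14), followed by the inhibitory receptor Lilrb4 (3.15, SE 0.12) and Ly86 (2.91, SE 0.12). Their summed linear intensity lay between 3414 and 3949 in P10 controls and between 10629 and 14047 in P180 controls. Genes of other leukocytes rose as well, so this check does not set macrophages apart from leukocytes in general. Of 10 pan-leukocyte genes 8 rose (Cd37 2.28, Coro1a 1.95, Plek 1.82), with a median change of 1.74 over the 10. So did 6 of 8 dendritic cell markers (Itgax 2.46) and 9 of 12 T and NK cell markers. Of those 9, Klrk1 changed by 2.91 and the others by 0.32 to 0.79. Of 6 B cell markers 1 rose (Cd79b 0.48). Neutrophil markers were mixed, 3 higher and 1 lower of 11 (Mmp9 -1.42), and so were mast cell markers, 2 higher and 1 lower of 8 (Mcpt1 0.46, Hdc 0.30, Kit -0.72). In the same arrays 5 of 6 fibroblast markers fell, such as Col1a1 by 2.64, and 3 of 4 smooth muscle markers rose, such as Des by 1.62, both on the log2 scale. The part of these other cells in the members' change was not tested.

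**Figure D2:**
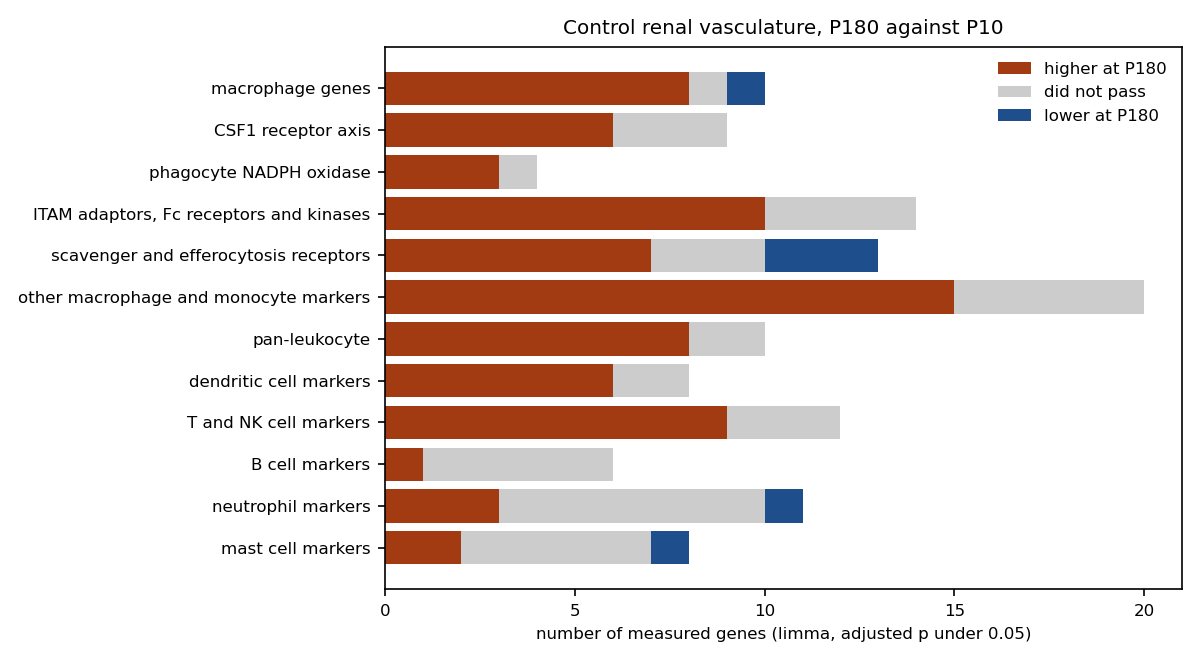
Number of measured genes (x axis) that were higher, lower or did not pass in control P180 against control P10 for 12 gene lists (y axis; limma, adjusted p under 0.05). The macrophage genes have 8 higher and 1 lower of 10, the other macrophage and monocyte markers 15 higher of 20, and the B cell, neutrophil and mast cell lists have mostly genes that did not pass.

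The same age comparison after MatSep gave the same directions. Here 8 members were higher at P180, Mrc1 was lower and Cd163 did not pass (log2 0.17, adjusted p = 0.271), with 27.4% of all transcripts called higher and 22.2% lower. The median change was 1.22 on the log2 scale, next to 0.07 for all transcripts. Cybb changed by 2.74 (SE 0.11), Fcer1g by 2.20 (SE 0.14), Aif1 by 2.12 (SE 0.09), Adgre1 by 1.60 (SE 0.10) and Nfam1 by 1.29 (SE 0.09). Cd68 changed by 1.14 (SE 0.17) and Csf1r by 1.04 (SE 0.13). Mrc1 fell by 1.21 (SE 0.13, 2.31-fold lower). Marco was near the threshold (0.23, SE 0.09, adjusted p = 0.0412), its groups overlapped, and it was lost when any of 6 MatSep arrays was left out (adjusted p up to 0.112) and after quantile normalization (0.12, adjusted p = 0.325).

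**Figure D3:**
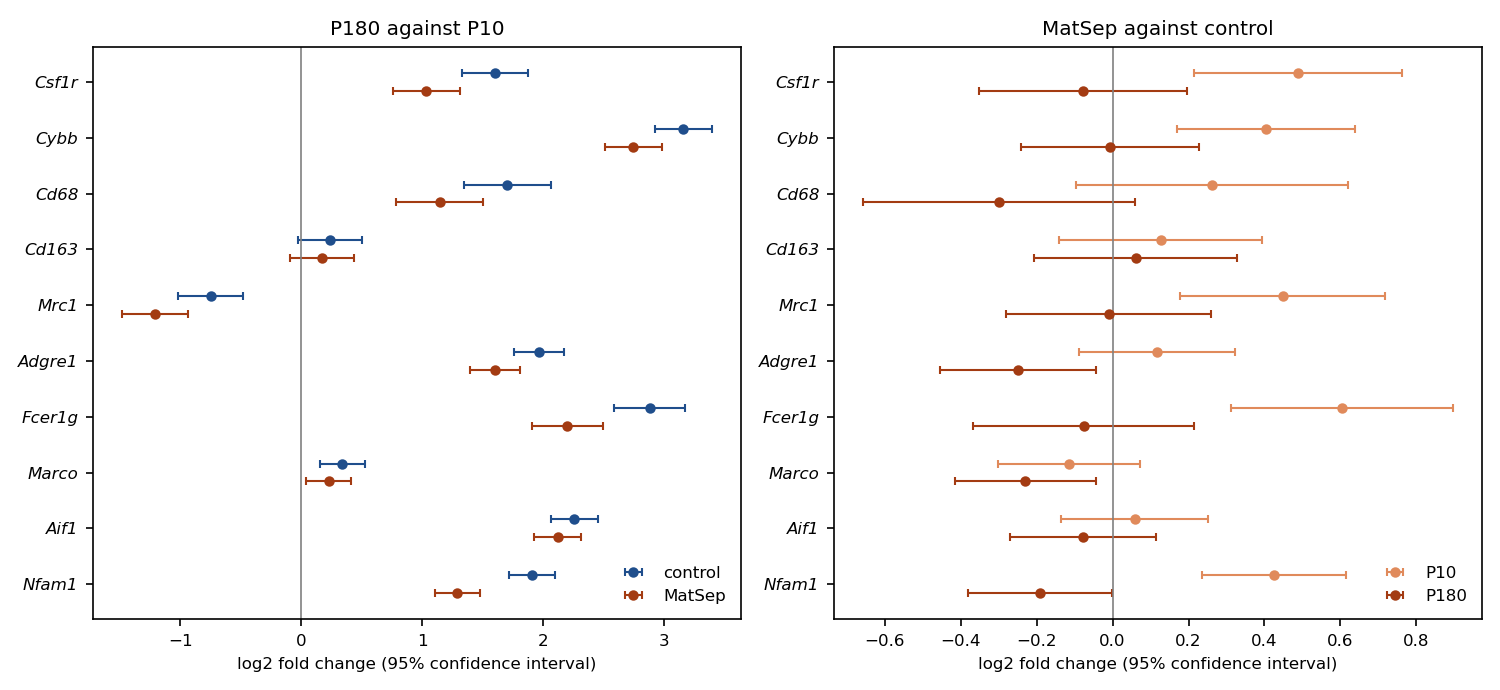
Log2 fold change (x axis; points, with 95% confidence intervals from limma) of each macrophage gene (y axis). Left, P180 against P10 in control and MatSep vasculature; right, MatSep against control at P10 and at P180. At P10 the MatSep means of 9 genes are above control, up to 0.60 for Fcer1g, and at P180 9 are below.

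MatSep against control at P10 addressed the short-term effect of separation. No member passed (limma, adjusted p under 0.05), in a comparison where 3 of 18511 transcripts were higher (0.0162%) and 0 were lower. Of the 10 members 9 nevertheless had a higher mean after MatSep (48.0% of all transcripts), and 5 had an unadjusted p under 0.05, all of them higher (5.10% of all transcripts): Fcer1g, Csf1r, Mrc1, Nfam1 and Cybb. The median difference was 0.33 on the log2 scale, next to -0.01 for all transcripts. These members share the same 10 arrays and are not independent of each other. Cybb, Nfam1 and Fcer1g also appear in the study's own lists of genes raised by MatSep in these neonates, so their direction is not independent evidence.

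Nfam1 measured 6.27, 6.85, 6.41, 6.69 and 6.76 in MatSep replicates 1 to 5 at P10, each above the highest control (6.25). It was the only member whose treatment groups did not overlap at this age (0.724% of all transcripts lay wholly higher), with a difference of 0.43 (SE 0.09, 1.34-fold, exact permutation p = 0.00794, adjusted p = 0.143 by limma) and rank 16 by p among all transcripts. The MatSep arrays spread more than the controls, with an SD of 0.25 against 0.07. Fcer1g measured 8.30, 8.61, 8.77, 8.91 and 8.66 after MatSep. Of these arrays 4 lay above the highest control and replicate 1 below it. The difference was 0.60 (SE 0.14, 1.52-fold, adjusted p = 0.153).

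Csf1r measured 7.92, 8.48, 8.26, 8.24 and 8.01 after MatSep, where 3 arrays exceeded every control (log2 0.49, SE 0.13, 1.40-fold, adjusted p = 0.217). Mrc1 measured 7.35, 7.92, 7.48, 7.48 and 7.61, and only replicate 2 exceeded control replicate 2 (0.45, SE 0.13, 1.36-fold, adjusted p = 0.247). The sign for Mrc1 was opposite to its fall with age, whereas that for Csf1r was the same as its rise. Cybb measured 6.40, 7.15, 6.89, 6.86 and 6.86, with 4 arrays above every control and replicate 1 among the controls (0.41, SE 0.11, 1.32-fold, adjusted p = 0.231).

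For the remaining members the treatment groups also overlapped at P10. For Adgre1 3 MatSep arrays lay above every control, as for Csf1r, and for Marco 3 lay below every control. Cd68 differed by 0.26 (95% interval -0.10 to 0.62), Cd163 by 0.13 (-0.14 to 0.39), Adgre1 by 0.12 (-0.09 to 0.32), Aif1 by 0.06 (-0.14 to 0.25) and Marco by -0.11 (-0.30 to 0.07). Differences between members in their response were not tested.

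Single arrays mattered at P10. Among the controls replicate 2 was the highest for 6 of 10 members and replicate 5 the lowest for 7. Among the MatSep arrays replicate 1 was the lowest for 9 and replicate 2 the highest for 5. Without control replicate 2, 4 members passed (Mrc1, Fcer1g, Nfam1 and Csf1r, adjusted p from 0.0143 to 0.0393), and without MatSep replicate 1, 3 passed (Nfam1, Cybb and Fcer1g, adjusted p from 0.012 to 0.0406). With arrays weighted by their quality 5 members passed (Nfam1, Fcer1g, Csf1r, Mrc1 and Cybb, adjusted p from 0.0107 to 0.028). In each of these cases the differences were larger, for example 0.69 for Fcer1g without either array and 0.59 for Mrc1 without control replicate 2. For each member that passed after an omission, the array left out was its highest control or its lowest MatSep array. Leaving that array out enlarges the difference by arithmetic. The weights came from these same values, so the larger differences are not separate evidence. No other single omission made a member pass. The share of all transcripts that passed without these arrays or with array weights is not given here. The counts of members therefore cannot be set against it. The same arrays stood at the ends of their groups in markers of other tissue. Control replicate 2 had the highest mean log2 intensity of the P10 controls for fibroblast (11.54, others 10.66 to 11.49) and adipocyte genes (7.90, others 5.43 to 7.18). MatSep replicate 1 had the lowest of the P10 MatSep arrays for fibroblast (11.40, others 11.72 to 11.97), adipocyte (6.84, others 7.39 to 8.42) and smooth muscle genes (10.24, others 10.40 to 11.18), and the highest for tubular genes (12.17, others 11.68 to 11.97). Control replicate 2 was also the highest for other macrophage (6.61) and pan-leukocyte genes (6.72), but not for smooth muscle genes. For dendritic cell (5.81), B cell and mast cell genes it was the lowest. MatSep replicate 1 was also the lowest for other macrophage (6.52), pan-leukocyte (6.52) and dendritic cell genes (5.73). The same held for T and NK cell, neutrophil, mast cell and lymphatic endothelial genes. The part of these lists in the calls gained was not tested.

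Within the run 19 to 24, all 3 MatSep arrays lay above all 3 controls for 8 members, all but Cd68 and Marco (11.6% of all transcripts lay wholly higher in that run). Fcer1g differed by 0.85 there, Csf1r by 0.66, Mrc1 by 0.58, Cybb by 0.50 and Nfam1 by 0.48. In the run 14 to 17, with 2 arrays per group, the differences were 0.24, 0.23, 0.25, 0.26 and 0.35 in the same order, and that of Aif1 was -0.22 against 0.24 in the later run. No member passed a test between the 2 runs themselves at P10 (limma, 0 of 10 members at an adjusted p under 0.05, 15.8% of all transcripts). With only 10 members this count does not set them apart from all transcripts. The later run minus the earlier was lowest for Mrc1 (-0.28, adjusted p = 0.123) and highest for Adgre1 (0.19, adjusted p = 0.164). With the run as a block no member passed the MatSep test.

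**Figure D4:**
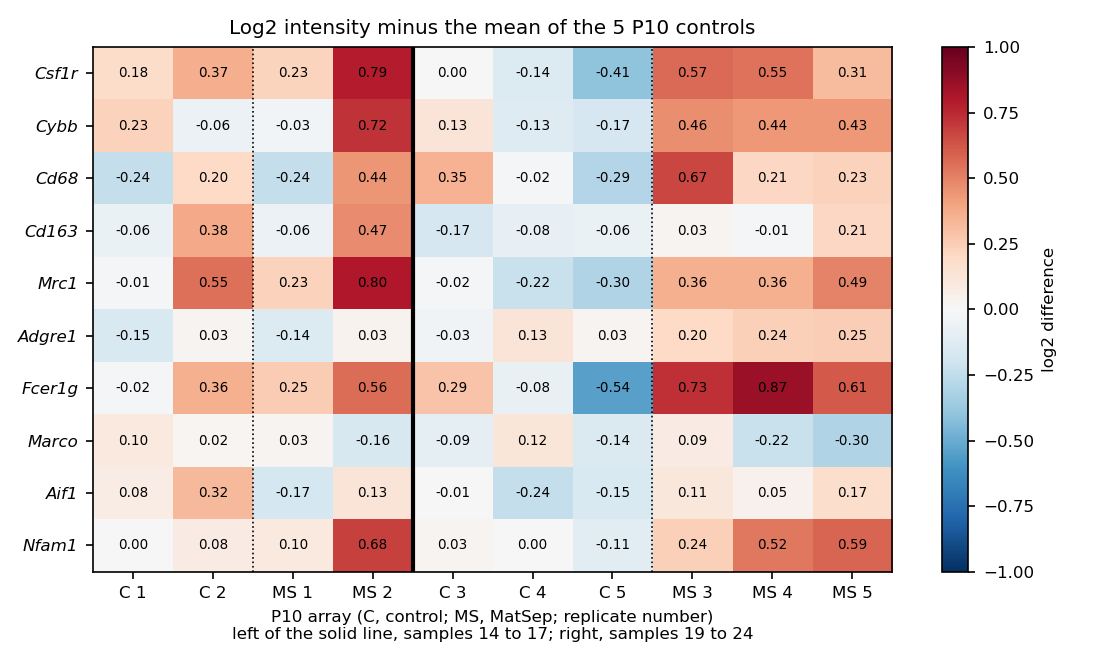
Difference of each P10 array (x axis, ordered by run of sample numbers and then by treatment) from the mean of the 5 P10 controls, in log2 units (colour and printed value), for the 10 macrophage genes (y axis). The 3 MatSep arrays right of the solid line are above the controls beside them for 8 genes, while MatSep replicate 1 to its left is close to control values.

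Among 20 other macrophage and monocyte markers at P10, 1 passed, the chemokine receptor Ccr1, at 5.57 ± 0.11 after MatSep and 5.10 ± 0.04 in controls (SD, n = 5 each, log2 0.47, SE 0.07, adjusted p = 0.0218). Ccr1 is dim, with both means under every array median. It also appears in the study's own list of inflammatory genes in these neonates, so its direction is not independent evidence. Of the 20, 9 had an unadjusted p under 0.05, all higher, such as Ctss (0.57, adjusted p = 0.155) and the complement gene C1qb (0.55, adjusted p = 0.283). Of 10 pan-leukocyte genes 4 did so, led by the tetraspanin Cd53 (0.73, adjusted p = 0.119), and none of 12 T and NK cell, 8 dendritic or 6 B cell markers was higher at that level, while the T cell gene Cd5 was lower (-0.23, adjusted p = 0.501). Of 11 neutrophil markers 1 was higher at that level, the granule peroxidase Mpo (1.11, adjusted p = 0.45). Of 8 mast cell markers the protease Cpa3 was higher (0.44, adjusted p = 0.247) and the IgE receptor chain Ms4a2 lower (-0.38, adjusted p = 0.453). Of the receptor, oxidase and scavenger lists no gene passed. Rac2 differed by 0.63 (adjusted p = 0.202), Axl by 0.46 (adjusted p = 0.29), the folate receptor Folr2 by 0.54 (adjusted p = 0.339) and Tyrobp by 0.33 (adjusted p = 0.373).

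Markers of other tissue moved in the same arrays. Among fibroblast markers 5 of 6 and among adipocyte markers 5 of 5 had an unadjusted p under 0.05 and were higher after MatSep at P10, though none passed after adjustment (Dpt 0.89, Lum 1.20, Adipoq 2.08, Lep 0.84 on the log2 scale). Their summed linear intensity lay between 13632 and 22230 in controls and between 20984 and 29440 after MatSep for fibroblast genes, and between 237 and 2133 against 902 to 2884 for adipocyte genes. For the 10 macrophage genes themselves it lay between 891 and 1341 in controls and between 1181 and 1622 after MatSep. The lymphatic chemokine Ccl21 differed by 0.99 (adjusted p = 0.202). The part of connective and fat tissue in the members' difference was not tested.

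MatSep against control at P180 addressed the long-term effect. No member passed, and of all transcripts 3 were higher and 3 lower (0.0162% each). A lower mean was found for 9 of 10 members after MatSep (50.7% of all transcripts), with a median of -0.08. Of these 3 had an unadjusted p under 0.05, all lower (3.11% of all transcripts). Marco measured 6.11, 6.01, 5.87, 6.24 and 6.13 after MatSep and 6.24, 6.17, 6.29, 6.28 and 6.54 in controls (-0.23, SE 0.09, adjusted p = 0.693). Of its 5 MatSep arrays 4 lay below every control. Adgre1 lay between 7.34 and 7.67 after MatSep and between 7.61 and 8.11 in controls (-0.25, SE 0.10, adjusted p = 0.712), and Nfam1 between 7.79 and 7.96 against 7.92 to 8.19 (-0.19, SE 0.09, adjusted p = 0.863). Both overlapped.

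Among the other members at P180, Cybb (-0.01, 95% interval -0.24 to 0.23) and Mrc1 (-0.01, -0.28 to 0.26) had nearly equal means, and Csf1r, Fcer1g and Aif1 each differed by -0.08. Cd163 was the one member with a higher mean (0.06, -0.21 to 0.33). Cd68 differed by -0.30 (-0.66 to 0.06), and the 2 runs differed in sign: -0.59 in samples 1 to 6, where all 3 MatSep arrays were below all 3 controls, as for Marco and Nfam1 (3 of 10 members, 7.09% of all transcripts), and 0.14 in samples 8 to 11. Marco differed by -0.23 and -0.22 in the 2 runs, and Nfam1 by -0.31 and -0.02. The 10 pan-leukocyte genes all had a lower mean after MatSep at P180, 3 of them with an unadjusted p under 0.05. So did the 6 fibroblast genes (2 at that level, median -0.31), the 5 lymphatic endothelial genes (2, median -0.12) and the 5 cell cycle genes (2, median -0.17), and their part in the members' differences was not tested.

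Whether the MatSep difference changed with age was tested directly. No member passed and neither did any other transcript (0 of 18511), but the difference at P180 was below that at P10 for 10 of 10 members (49.0% of all transcripts), and 7 had an unadjusted p under 0.05 (4.96% of all transcripts). This is by construction the same quantity as the signed age change after MatSep minus that in controls, over the same 20 arrays: the members that rose with age rose by less after MatSep in these means, and Mrc1 fell by more. Nfam1 went from 0.43 at P10 to -0.19 at P180 (difference -0.62, SE 0.13, adjusted p = 0.137, rank 15 by p). It passed without MatSep P10 replicate 1 (-0.70, adjusted p = 0.0192) and with array weights (-0.66, adjusted p = 0.0259). Leaving out that array, the lowest of its group for Nfam1, enlarges this difference by arithmetic. Fcer1g had the largest difference of the members (-0.68, SE 0.20, adjusted p = 0.266), and after Nfam1 came Csf1r (-0.57, adjusted p = 0.319), Cd68 (-0.56, adjusted p = 0.492) and Mrc1 (-0.46, adjusted p = 0.445). All 6 fibroblast, 5 adipocyte and 10 pan-leukocyte genes measured also had a negative difference, and their part in that of the members was not tested.

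All other genes were ranked by how close their centred profile over the 20 arrays came to the mean centred profile of the members, as the root mean square difference in log2 units (median of all transcripts 0.672). The nearest were Nudt18 (0.125), Laptm5 (0.14, a lysosomal protein of leukocytes), B2m (0.142, the light chain of MHC class I), Arrb2, Znfx1, Aldh2, Ltbp2 and Parp14. The members themselves ranged from 0.141 for Csf1r and 0.182 for Nfam1 to 0.821 for Cybb, whose change was larger than the mean, and 1.17 for Mrc1, whose change was opposite. Nudt18 changed by 1.41 with age in controls and by 0.32 with MatSep at P10 (adjusted p = 0.143). Over the 10 arrays of P10 alone the nearest were Akt2 (0.0573), P4ha1 (0.06), Dcn, Grb10, Sh3bgrl1, Tnip1, Adam23 and Elovl5 (median of all transcripts 0.242), where Dcn and P4ha1 are a matrix proteoglycan and a collagen-modifying enzyme. In these arrays the members ranged from 0.137 for Nfam1 to 0.236 for Fcer1g, close to that median, and 0.28 for Marco, beyond it.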

How the data were processed

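Total RNA of renal vasculature was hybridised to rat whole-transcript arrays. According to the methods and the labels, the authors normalized the scans by RMA in Partek; the deposited matrix holds linear intensity values, 1 column per sample, with versions not given in the sources used here. The log2 of each intensity was taken. The authors' own fold changes, p-values and group means were deposited as separate tables and were not used. Of 36685 transcripts, 18511 carry 1 gene symbol, 575 several and 17599 none listed; only the first were tested, and the platform's symbols were used. Background signal compresses fold changes of dim genes; the number of arrays limits precision.

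Limma 3.58.1 in R 4.3.3 (lmFit, eBayes, 16 residual degrees of freedom) fitted 1 mean per group, with Benjamini-Hochberg adjustment over all 18511 transcripts. Single members were also compared by an exact 2-sided permutation test over 252 arrangements. The procedure was tested on simulated data. The 10 members and the other gene lists were chosen with earlier results of these data known. Named genes were all members, up to 3 genes per list with the smallest p in the control age comparison and up to 3 in the MatSep comparison at P10, and the 8 genes nearest in profile over all arrays and over the P10 arrays; others are said to be chosen after their values were seen. Alternatives were the compared groups alone, each array left out, replicate number or run as a block, array weights, median centring, a robust variance prior that follows intensity, quantile normalization, a filter on mean log2 under 5, all transcripts, and the series matrix values. Promoters came from RefSeq tables (GRCr8). Figures were drawn with matplotlib 3.10.9.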

Additional observations from a re-analysis of the deposited data

Results flagged for a closer look

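Cd163 in P10 controls had 1 array far from the other 4: replicate 2 measured 5.81 on the log2 scale, and the others lay between 5.27 and 5.37, a gap of 0.81 of the group's range. The same array was the highest control for 6 of the 10 members. Of 40 sets of 5 arrays (10 members in 4 groups) it was the only one so far apart, and chance sets apart about 1 set in 20.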

How the results depend on the processing

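The counts of members called with age did not move by more than 1: 9 of 10 in controls (9 to 10 when single arrays were left out) and 9 of 10 after MatSep (8 to 9). For MatSep against control at P10 the count of 0 became 5 with array weights and 5 at an unadjusted p under 0.05, and ran from 0 to 4 when single arrays were left out. At P180 it became 3 at an unadjusted p under 0.05 and stayed at 0 when single arrays were left out. For the difference between the ages it became 1 with array weights, 7 at an unadjusted p under 0.05, and 0 to 1 when single arrays were left out. Shares of all transcripts passing with array weights or without single arrays are not given here, and the cause was not tested. Log2 differences close to 0 changed sign in some settings. Cybb at P180 became 0.00622 with median centring and 0.00537 with quantile normalization, and ran from -0.0654 to 0.0226 when single arrays were left out. Mrc1 at P180 became 0.00401 with median centring and ran from -0.0505 to 0.0428 without single arrays. Leaving out arrays, Cd163 ran from -0.0505 to 0.111 at P180 and its difference between the ages from -0.177 to 0.0203, and Aif1 at P10 ran from -0.00235 to 0.139. Replicate numbers are shared between groups, but same-numbered arrays did not all deviate together (r over transcripts from 0.0924 to 0.615 at P10 and from -0.211 to 0.214 at P180), so they were not treated as pairs. At P10 the best-correlated MatSep array of control replicates 1, 2, 3 and 5 nevertheless had the same number, and that of control replicate 4 was replicate 5. At P180 only control replicates 4 and 5 had a best match of the same number. With the replicate block, 0 members passed for MatSep at either age or for the difference between the ages, and 9 with age in controls. Marco was lost for age after MatSep with that block (8 members in place of 9, adjusted p = 0.055), with the compared groups alone (0.0642), a robust variance prior (0.055) and all transcripts tested (0.0539). The difference between the ages needs all 4 groups, so no fit of the compared groups alone applied to it.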
